A study of Caenorhabditis elegans with 12 samples.

Results

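What changes between the first 2 h and 4 h after a move to a cooler plate was examined in whole adults of the nematode Caenorhabditis elegans (wild-type strain N2 Bristol, no allele or transgene given). The comparison is between 8 of the 12 arrays of the series, picked by the time in their titles. The later group is the 4 arrays taken at 4 h. The early group pools the 2 arrays taken at 1 h with the 2 taken at 2 h. The 4 arrays taken at 0 h, just before the shift, place each difference relative to the starting level. They also enter the shared estimate of the spread on which the p-values rest. Animals of every group had grown at 23 °C for 2.5 days after embryos were plated, and those of the later times had then been moved to 17 °C. Each array read the pooled RNA of many animals. No array of animals that stayed warm for equal hours was analysed here. Cooling, handling and the added hours of age therefore cannot be told apart. Whether replicates were separate cultures is not stated in the labels, so p-values measure only the spread between these samples, which may be technical.

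Nematodes take the temperature of their surroundings. Cooling stiffens membranes, and cells are known to answer by changing the share of unsaturated fatty acids in their lipids, made by desaturases. Warmth near the upper end of the growth range keeps some heat-inducible chaperones expressed, and a small set of sensory neurons and interneurons stores the cultivation temperature and guides thermotaxis. The intestine of the adult is the main site of digestion, fat storage, detoxification and yolk synthesis.

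Expression is given as log2 signal of a probe set, the group of oligonucleotides that reads a transcript. A difference of 1 is a 2-fold change. Lower quartiles of the arrays were 3.53 to 3.64, and the size of a change in genes at or near that level is uncertain. The yolk gene vit-2 (mean 12.64 at 4 h and 12.58 in the early group) and the body-wall muscle myosin gene unc-54 (10.07 and 10.43) had high signal. The neuronal gene rgef-1 was near the lower quartile (3.66 and 3.66). In whole animals, fewer cells of a type and less RNA per cell cannot be told apart. The 1 h and 2 h groups hold replicates 1 and 2 alone. Replicates 3 and 4 at 0 h and 4 h stood apart on the third principal component (12% of the variance), at 7.49 to 15.3 against at most -1.42 on the other 8 arrays. Differences are therefore also given within replicates 1 and 2 (4 h n = 2, early n = 4).

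Between the early hours and 4 h, 59 of 17118 genes changed (0.345%, limma adjusted p under 0.05), of which 23 rose (0.134%) and 36 fell (0.21%). Counted as single-symbol probe sets, 65 of 20766 passed (0.313%). Their differences were small to moderate: the median size was 0.60 among the genes that rose and 0.64 among those that fell, 34 of the 59 were at least 1.5-fold and 4 at least 2-fold. The 4 were endu-2 and kqt-2, which rose, and mtl-1 and hsp-16.2, which fell. In 58 of the 59 genes the 4 arrays at 4 h did not overlap with the 4 early arrays, a separation that 8.03% of all genes showed, and the exception was the amine N-methyltransferase gene anmt-3. With 1 array left out the count was 18 to 55. It was below 40 without any of replicates 1 (28), 2 (29) or 3 (18) at 4 h, replicates 1 (29) or 2 (24) at 1 h, or replicate 1 at 2 h (26). It was also below 40 without replicates 1 (39), 2 (39) or 3 (30) at 0 h, which alter only the estimate of the spread. In all 12 of these fits 15 of the 59 genes stayed called, 6 that rose and 9 that fell. In the 8 arrays of 4 h and the early group alone 15 genes passed, of which 14 were among the 59. With all 12 arrays and unadjusted p under 0.05 in limma, 2246 of 17118 genes differed. Counts of list members at that threshold are to be read against this share.

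**Figure D1:**
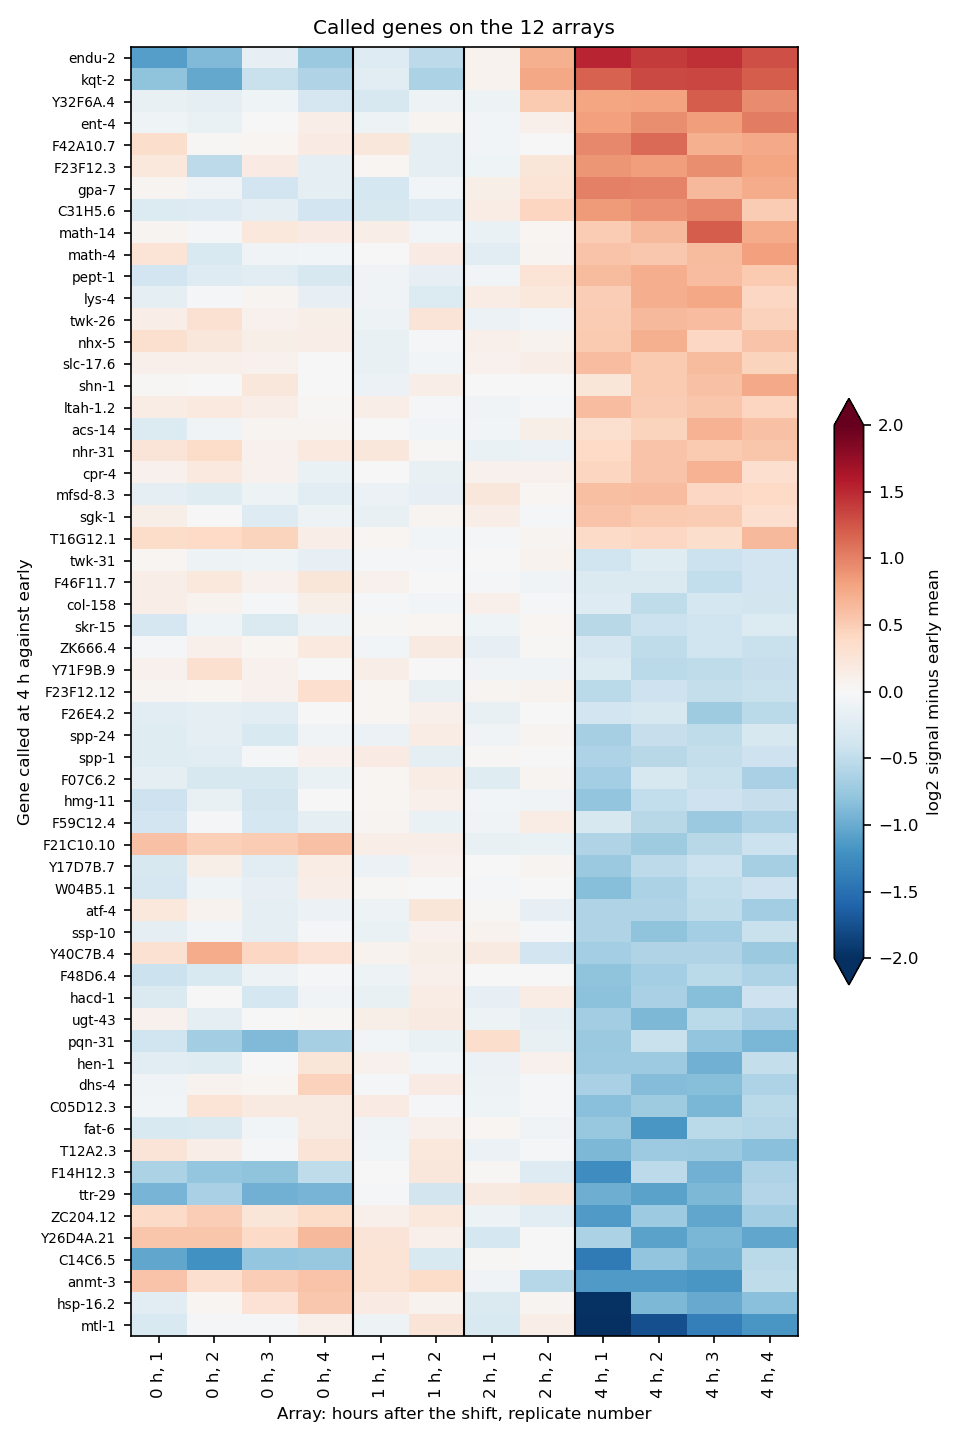
Heat map of the 59 called genes (rows, ordered by their difference) on the 12 arrays (columns, ordered by hours after the shift and replicate number), with colour giving log2 signal minus the mean of the 4 early arrays, from -2 to 2. The columns of 4 h stand apart from those of 1 h and 2 h for the 23 genes that rose and the 36 that fell, and in most genes the 0 h columns are close to the early ones.

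The differences kept their direction in all 59 genes when replicates 3 and 4 were left out at every time. For the 58 genes without overlap this was fixed in advance, as fewer of the same arrays cannot reverse the sign. The ratio of the difference within replicates 1 and 2 to the one from all arrays had a median of 1.03 and ran from 0.726 to 1.26. With fewer arrays 28 genes passed (0.164%), of which 10 were among the 59. The metallothionein gene mtl-1 showed the largest fall in both, at -1.58 over all arrays and -1.90 within replicates 1 and 2, and endu-2 the largest rise, at 1.42 and 1.45.

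**Figure D2:**
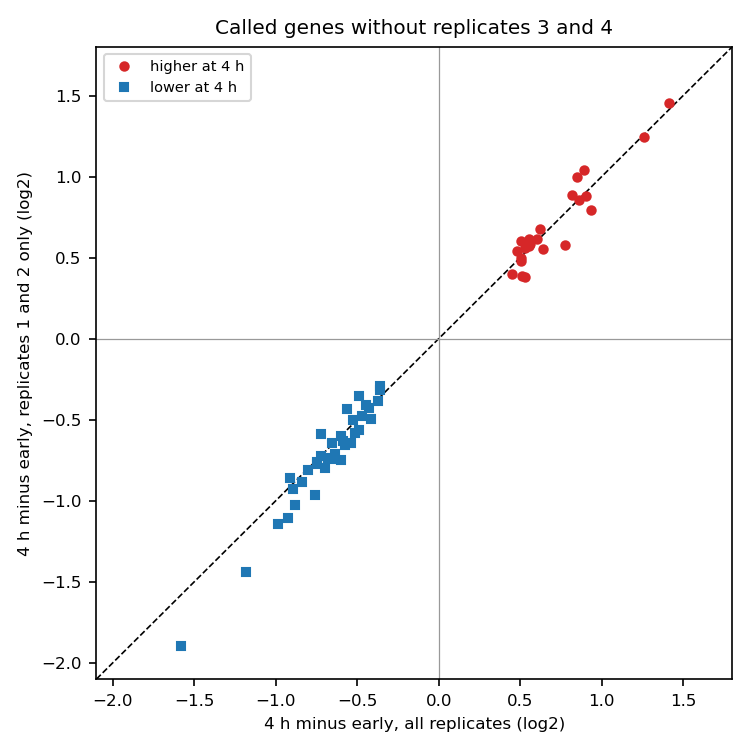
Difference between 4 h and the early group in log2 units for the 59 called genes, from all arrays (horizontal axis) and from replicates 1 and 2 only (vertical axis), with the dashed line marking equal values. All 59 points keep their sign, the 23 red circles above 0 and the 36 blue squares below it. The sign was fixed in advance where the 4 h and early arrays do not overlap.

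The 2 largest rises were those of the endoribonuclease gene endu-2 and the KCNQ-type potassium channel gene kqt-2. The log2 signal of endu-2 was 9.31, 9.18, 9.26 and 9.08 at 4 h, against 7.53 and 7.27 at 1 h and 7.86 and 8.51 at 2 h. All 4 arrays at 4 h lay above all early ones, of which replicate 2 at 2 h was highest. The rise was 2.67-fold (log2 difference 1.42, SE 0.228, limma adjusted p = 0.0205), and the 0 h arrays lay lower (6.70 to 7.62). The signal of kqt-2 was 8.09, 8.23, 8.25 and 8.12 at 4 h, against 6.69 and 6.28 at 1 h and 6.99 and 7.69 at 2 h. It rose by 1.26 (2.39-fold, SE 0.22, limma adjusted p = 0.0342), again with replicate 2 at 2 h as the highest early array and with 0 h at 5.89 to 6.46. Both genes had higher means at 2 h ( 8.19 and 7.34) than at 1 h (7.40 and 6.49), though neither step from 1 h to 2 h passed (adjusted p = 0.631 and 0.382). A second endu-2 probe set differed by 1.26 (adjusted p = 0.0506), whereas the other kqt-2 probe sets differed by only 0.15 (adjusted p = 0.512) and 0.14 (adjusted p = 0.624). The calls of endu-2 and kqt-2 held in 6 and 5 of the 12 fits that left out 1 array, with adjusted p up to 0.0803 and 0.107.

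**Figure D3:**
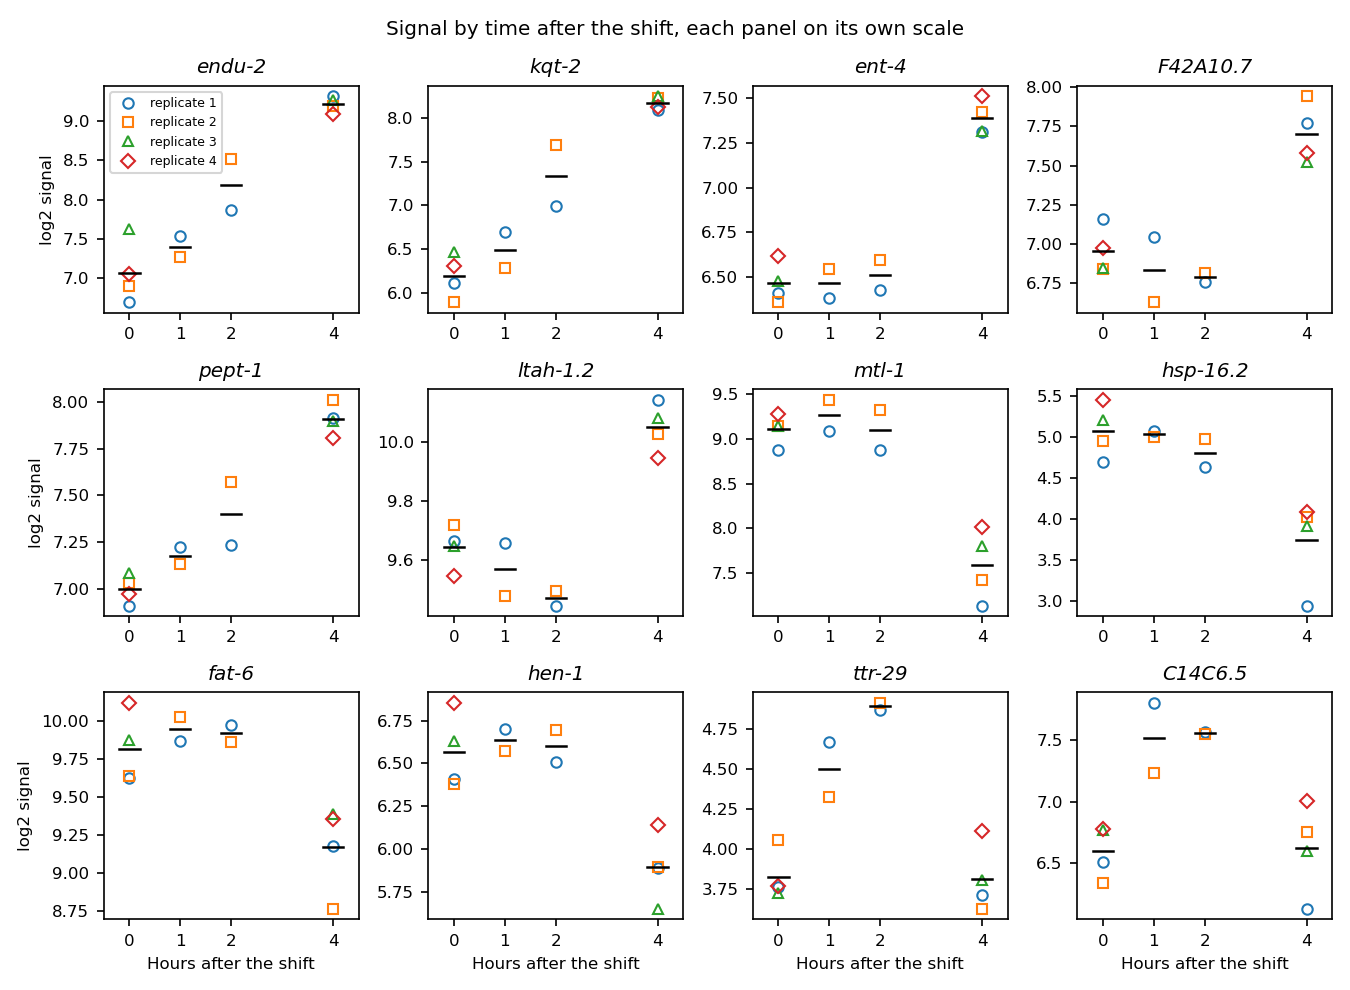
Log2 signal (vertical axes, a scale for each panel) against hours after the shift for 12 called genes, with a symbol for each replicate number and a black bar at the mean of each time. The means of endu-2, kqt-2 and pept-1 are higher at 2 h than at 1 h, for pept-1 mainly through replicate 2. None of these 1 h to 2 h steps passed. The genes ent-4, mtl-1, fat-6 and hen-1 are level until 2 h, and ttr-29 and C14C6.5 are high at 1 h and 2 h and near the 0 h level at 4 h.

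Genes are described here by role, in an order made after the values were seen, and no list of all transporters and channels was made. The choices to name twk-26, mfsd-8.3, sgk-1, shn-1, anmt-3, hacd-1, pqn-31, Y40C7B.4, F21C10.10, F46F11.7 and T16G12.1 were also made after their values were seen. The gene ent-4, of the equilibrative nucleoside transporter family, had 7.31, 7.42, 7.32 and 7.51 at 4 h, against 6.38 and 6.55 at 1 h and 6.43 and 6.59 at 2 h. It rose by 0.90 (1.87-fold, SE 0.0796, limma adjusted p = 0.000468), the smallest p of all genes, and stayed called without any single array (adjusted p up to 0.00421). Its early arrays were level with the 0 h arrays (6.36 to 6.62), and within replicates 1 and 2 the difference was 0.88. The intestinal peptide transporter gene pept-1, which takes up digested oligopeptides, rose by 0.62 (SE 0.0913, limma adjusted p = 0.0131), with 7.92, 8.01, 7.90 and 7.81 at 4 h, against 7.22 and 7.13 at 1 h and 7.23 and 7.57 at 2 h. Its replicate 2 at 2 h was the highest of the early arrays and still below all arrays of 4 h. Smaller rises were those of slc-17.6, of the SLC17 family of anion transporters (0.55, adjusted p = 0.00782), nhx-5, a sodium/proton exchanger gene (0.56, adjusted p = 0.0131), the TWK-family potassium channel gene twk-26 (0.56, adjusted p = 0.0205) and mfsd-8.3, of the major facilitator superfamily (0.50, adjusted p = 0.0374). The calls of ent-4, pept-1, slc-17.6 and nhx-5 held in all 12 fits that left out 1 array, that of twk-26 in 7 (adjusted p up to 0.085) and that of mfsd-8.3 in 2 (up to 0.107). The ABC transporters, which export lipids and foreign compounds, had 0 of 50 members past the threshold in limma (7 with unadjusted p under 0.05), with mrp-7 at 0.30 (adjusted p = 0.145).

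Signalling genes that rose were gpa-7, which encodes a G protein alpha subunit, and sgk-1, a serum- and glucocorticoid-inducible kinase gene. The signal of gpa-7 was 6.46, 6.45, 6.11 and 6.20 at 4 h, against 5.11 and 5.41 at 1 h and 5.58 and 5.74 at 2 h, a rise of 0.85 (SE 0.134, limma adjusted p = 0.0205), and that of sgk-1 rose by 0.48 (adjusted p = 0.047). The scaffold gene shn-1, the worm Shank gene, rose by 0.53 (adjusted p = 0.047), with 0.38 within replicates 1 and 2, and its other probe set differed by 0.30 (adjusted p = 0.542). Among digestive and defence genes, the lysozyme gene lys-4 rose by 0.60 (adjusted p = 0.0447) and the cathepsin B-like protease gene cpr-4 by 0.51 (adjusted p = 0.0447), the 1 called member of 28 cathepsin and aspartyl protease genes. The aminopeptidase gene ltah-1.2, related to leukotriene A4 hydrolase, had 10.14, 10.02, 10.08 and 9.95 at 4 h, against 9.66 and 9.48 at 1 h and 9.45 and 9.49 at 2 h. Its rise of 0.53 (SE 0.0721, limma adjusted p = 0.00782) was small, but all 4 h arrays lay above all early ones, and it held in all 12 fits that left out 1 array. The call of gpa-7 was lost in 3 of these fits, and those of sgk-1, shn-1, lys-4 and cpr-4 in 10 or more, with adjusted p up to 0.0605 for gpa-7 and 0.141 for shn-1.

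Other rises were in genes of less known function. F42A10.7 had 7.77, 7.94, 7.52 and 7.58 at 4 h, against 7.04 and 6.63 at 1 h and 6.76 and 6.82 at 2 h, a rise of 0.89 (SE 0.112, limma adjusted p = 0.00634) that was 1.04 within replicates 1 and 2 and held in all 12 fits. Y32F6A.4 rose by 0.94 (adjusted p = 0.0205), with replicate 2 at 2 h as its highest early array (7.17), but its other probe set differed by -0.16 (adjusted p = 0.597), the only 1 of 15 further probe sets of called genes with the opposite sign. C31H5.6 rose by 0.82 (adjusted p = 0.0377) and F23F12.3 by 0.86 (adjusted p = 0.0218), the latter with early values of 3.01 to 3.46 that lie under the lower quartile of the arrays. The other F23F12.3 probe sets differed by 0.35 (limma adjusted p = 0.274) and 0.53 (limma adjusted p = 0.132). The MATH-domain genes math-14 (0.78, adjusted p = 0.0205) and math-4 (0.64, adjusted p = 0.0431) were the 2 called members of 413 F-box and MATH-BTB genes, a family of mostly ubiquitin-ligase adaptors, of which 230 lay below 0. The rise of math-14 was 0.58 within replicates 1 and 2, where its highest array, replicate 3 at 4 h (8.07), is left out. The calls of Y32F6A.4, C31H5.6, F23F12.3, math-14 and math-4 held in 8, 2, 6, 10 and 2 of the 12 fits that left out 1 array. Their limma adjusted p went up to 0.0803, 0.128, 0.085, 0.0694 and 0.119.

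The 2 largest falls were those of mtl-1 and hsp-16.2. The metallothionein gene mtl-1, which binds zinc and cadmium, had 7.14, 7.42, 7.80 and 8.01 at 4 h, against 9.08 and 9.44 at 1 h and 8.87 and 9.32 at 2 h, and the 0 h arrays were level with the early ones (8.88 to 9.28). It fell by 1.58 (2.99-fold lower, SE 0.171, limma adjusted p = 0.00233), held in all 12 fits that left out 1 array, and was the 1 called member of 31 metal-response genes, whose median difference was 0.02. For hsp-16.2, whose small heat-shock protein binds unfolded proteins, the signal was 2.94, 4.02, 3.91 and 4.08 at 4 h, against 5.08 and 4.99 at 1 h and 4.63 and 4.97 at 2 h. It fell by 1.18 (SE 0.223, limma adjusted p = 0.0447), or by 1.44 within replicates 1 and 2, and replicate 1 at 4 h, under the lower quartile, stood well below the other 3. This call held in 3 of 12 fits (adjusted p up to 0.122), and hsp-16.2 was the only 1 of 10 heat-inducible chaperone genes measured by single-gene probe sets that passed. Constitutive cytosolic chaperones (0 of 27 passed, 1 with unadjusted p under 0.05), those of the endoplasmic reticulum (0 of 17, 3 unadjusted) and of mitochondria (0 of 8, 1 unadjusted) had none past the limma threshold, with sti-1 at -0.21 (adjusted p = 0.222) and the BiP gene hsp-3 at -0.26 (adjusted p = 0.124). The bZIP gene atf-4, a regulator of the integrated stress response, fell by 0.60 (adjusted p = 0.0302, 5 of 12 fits, up to 0.0767).

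Lipid and detoxification genes passed in both directions. The stearoyl-CoA desaturase gene fat-6, which makes monounsaturated fatty acids, had 9.18, 8.76, 9.39 and 9.36 at 4 h, against 9.87 and 10.03 at 1 h and 9.97 and 9.86 at 2 h. All 4 arrays at 4 h were lower than all early ones, which spread little, and the fall was 0.76 (1.70-fold lower, SE 0.136, limma adjusted p = 0.0356), or 0.96 within replicates 1 and 2. It was the 1 called member of 28 desaturation and synthesis genes. The hydroxyacyl-CoA dehydrogenase gene hacd-1 fell by 0.68 (adjusted p = 0.0342) and the short-chain dehydrogenase gene dhs-4 by 0.75 (adjusted p = 0.0131), whose second probe set differed by -0.36 (adjusted p = 0.199). In the other direction, the acyl-CoA synthetase gene acs-14, which activates fatty acids for breakdown, rose by 0.51 (adjusted p = 0.0438). It was the 1 called member of a list of 75 beta-oxidation and peroxisomal genes, of which 53 lay above 0 (median 0.09). That list did not hold hacd-1, which fell, so it does not show that called genes of this kind only rose. The nuclear hormone receptor gene nhr-31 rose by 0.51 (adjusted p = 0.0352), 1 of 259 receptors. Of 64 UDP-glucuronosyltransferase genes, which conjugate sugar to foreign compounds, only ugt-43 passed: it had 4.61, 4.41, 4.77 and 4.67 at 4 h, against 5.44 and 5.49 at 1 h and 5.21 and 5.12 at 2 h and fell by 0.70 (SE 0.1, limma adjusted p = 0.0115). None of 73 cytochrome P450 genes passed in limma (12 with unadjusted p under 0.05), though cyp-37B1 had a difference of -1.23 and just missed (adjusted p = 0.0506). None of 73 glutathione S-transferase and redox genes passed either (11 unadjusted, gst-44 at -0.30). The calls of fat-6, hacd-1, dhs-4, acs-14, nhr-31 and ugt-43 held in 4, 7, 11, 2, 4 and 12 of the 12 fits that left out 1 array, with adjusted p up to 0.0993, 0.118, 0.0528, 0.133, 0.107 and 0.0391.

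Of the neuronal lists, 1 gene passed. The gene hen-1, whose secreted product is needed for integrating sensory cues, had 5.89, 5.90, 5.65 and 6.14 at 4 h, against 6.70 and 6.57 at 1 h and 6.51 and 6.70 at 2 h. It fell by 0.72 (SE 0.117, limma adjusted p = 0.0205), with no overlap between the groups and with 0 h arrays at 6.38 to 6.85, and its call held in 6 of 12 fits (adjusted p up to 0.0803). It was the 1 called member of 28 thermotaxis circuit genes, of which 12 lay above 0 and 16 below. No neuropeptide gene passed in limma (0 of 86, 20 with unadjusted p under 0.05), with nlp-6 at -0.54 (adjusted p = 0.0991), nor any insulin-like peptide gene (0 of 24, 1 unadjusted, ins-24 at -0.23) or pan-neuronal marker (0 of 21, 1 unadjusted, egl-3 at -0.31). Neuropeptides had a median of -0.11 with 63 of 86 below 0. Over all genes the median was -0.0048, 8817 of 17118 lay below 0 and 2246 had unadjusted p under 0.05 in limma. Against 0 h the neuropeptide median was 0.12 in the early group and 5.8e-05 at 4 h, so the list was back near its starting level.

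The other falls included several genes without a settled role. T12A2.3 had 4.48, 4.64, 4.62 and 4.53 at 4 h, against 5.32 and 5.57 at 1 h and 5.24 and 5.33 at 2 h, with the 4 h arrays within a narrow range, and fell by 0.80 (SE 0.0877, limma adjusted p = 0.00233). C05D12.3 fell by 0.75 (adjusted p = 0.00634), ZC204.12 by 0.90 (adjusted p = 0.00634) and Y26D4A.21 by 0.91 (adjusted p = 0.00782), and these 4 calls held in all 12 fits that left out 1 array. The sperm-specific family gene ssp-10 fell by 0.63 (adjusted p = 0.00782, held in all 12 fits), the 1 called member of 87 sperm genes. Its probe set is marked as cross-hybridising, so the signal may not come from this gene alone. The saposin-like genes spp-1 (-0.51, adjusted p = 0.0356) and spp-24 (-0.49, adjusted p = 0.0355), of a family of membrane-acting antimicrobial proteins, fell, while a second spp-1 probe set differed by -0.06 (adjusted p = 0.84). With lys-4 above, 1 rose and 2 fell among 66 lysozyme and antimicrobial peptide genes. The calls of the cuticle collagen gene col-158 (-0.37, adjusted p = 0.0489) and of F46F11.7 (-0.36, adjusted p = 0.0489) were each lost whenever any 1 of the 12 arrays was left out (adjusted p up to 0.144 and 0.156), those of spp-1 and spp-24 in 7 and 9 of the 12 fits (up to 0.0985 and 0.114). The arrays of anmt-3 overlapped, at 5.70, 5.70, 5.69 and 6.34 at 4 h, against 7.12 and 7.21 at 1 h and 6.77 and 6.27 at 2 h, and its fall of 0.99 (adjusted p = 0.0447) held in 2 of the fits (up to 0.137). The remaining 11 genes that fell were F48D6.4, W04B5.1, Y17D7B.7, F59C12.4, hmg-11, F07C6.2, F26E4.2, F23F12.12, Y71F9B.9, ZK666.4 and the potassium channel gene twk-31, all named after their values were seen. They ranged from -0.66 in F48D6.4, which held in all 12 fits, to -0.36 in twk-31, and each of the other 10 lost its call in at least 7 fits.

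Set against the 0 h arrays, most of these changes met the tests for a late onset. A gene was counted as late onset where 4 h also differed from 0 h in the same direction and the early group did not pass against 0 h, and as returning where the early group had moved the opposite way and 4 h did not pass against 0 h. These comparisons share arrays, and a missed threshold does not show that 2 levels were equal. By these tests 45 of the 59 genes were of late onset (21 that rose and 24 that fell), 2 returned, 1 passed at both steps in the same direction and 11 were not resolved. Over all genes 1.99% passed at 4 h against 0 h and 0.216% in the early group against 0 h. By position of the means alone, 30 of the 59 had a 0 h mean within 0.25 of the early mean when the step from early to 4 h is set to 1. A further 13 had already moved in the same direction by the early hours, 11 lay between, and 5 were back near the 0 h mean at 4 h. Same-numbered 0 h and 4 h arrays deviated together. With the replicate number as a block 21 genes returned and 65 were of late onset, among 164 called at 4 h against early, of which 41 were among the 59. With 1 array left out, 17 to 40 genes were of late onset and 0 to 5 returned: the first count was 30 or below without any of replicates 1 (20), 2 (21) or 3 (18) at 4 h, either replicate at 1 h (17 each), replicate 1 at 2 h (21) or replicates 2 (29), 3 (23) or 4 (27) at 0 h.

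**Figure D4:**
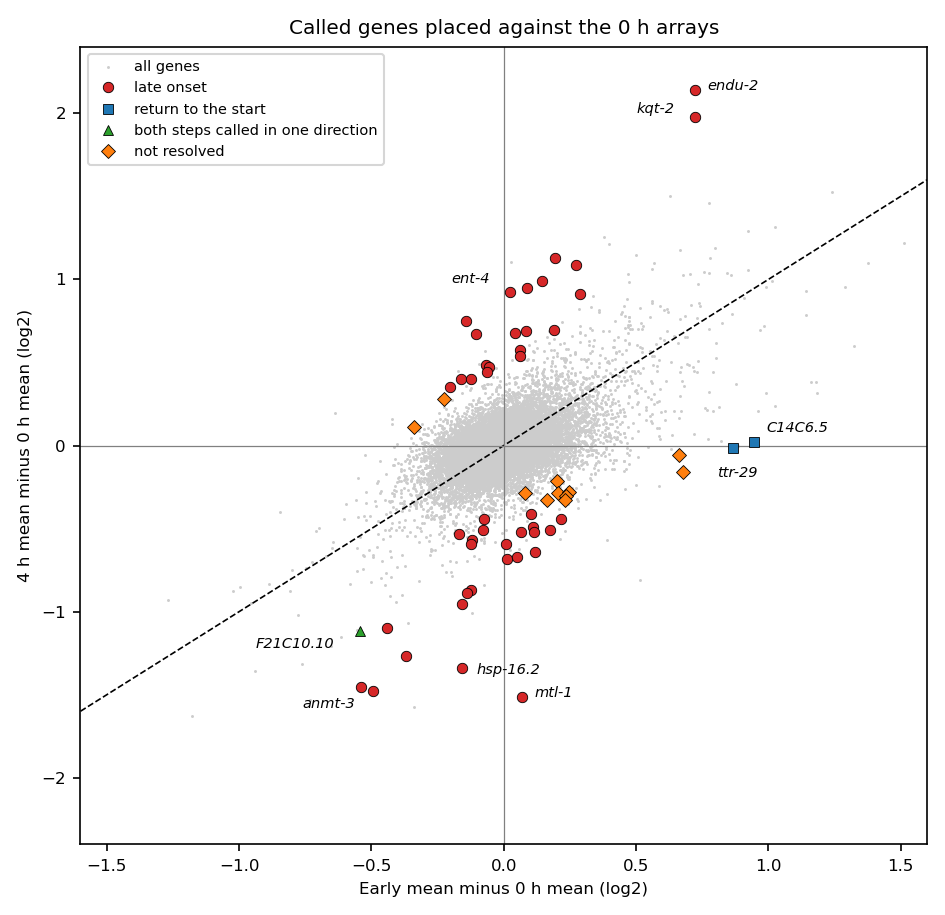
Early mean minus 0 h mean (horizontal axis) and 4 h mean minus 0 h mean (vertical axis), in log2 units, for all genes (grey) and the 59 called at 4 h against early, with the dashed line marking no difference between 4 h and early. Both axes share the 0 h arrays. The 45 late onset genes (red circles) lie mostly near 0 horizontally, whereas ttr-29 and C14C6.5 (blue squares) lie near 0 vertically.

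The 2 genes that returned were high at 1 h and 2 h and near the starting level at 4 h. The transthyretin-related gene ttr-29, of a large family of secreted proteins, had 3.71, 3.63, 3.80 and 4.11 at 4 h, against 4.67 and 4.32 at 1 h and 4.87 and 4.91 at 2 h, with 0 h arrays at 3.73 to 4.05. It fell by 0.88 between the early group and 4 h (SE 0.134, limma adjusted p = 0.0149), after a difference of 0.87 between early and 0 h (adjusted p = 0.0405). Its 4 h and 0 h means, 3.81 and 3.83, lie close to the lower quartile of the arrays. C14C6.5 had 6.12, 6.75, 6.59 and 7.002 at 4 h, against 7.81 and 7.24 at 1 h and 7.57 and 7.55 at 2 h, with 0 h at 6.33 to 6.78. It fell by 0.92 (SE 0.17, limma adjusted p = 0.0417), by 1.11 within replicates 1 and 2, and its second probe set differed by -0.60 (adjusted p = 0.211). The calls at 4 h against early of ttr-29 and C14C6.5 held in 11 and 3 of the 12 fits that left out 1 array (adjusted p up to 0.0528 and 0.123). F14H12.3 (-0.84) and pqn-31 (-0.72) had means of the same shape, but the early group missed the threshold against 0 h (adjusted p = 0.0771 and 0.0689). T16G12.1 was the 1 gene with the mirrored course: it rose by 0.45 (adjusted p = 0.0465) to 6.03 at 4 h, against 5.58 early and 5.91 at 0 h, and its other probe sets differed by 0.13 and 0.07. The calls of F14H12.3, pqn-31 and T16G12.1 at 4 h against early held in 7, 2 and 1 of the 12 fits.

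A steady descent was seen in F21C10.10, the gene that passed at both steps. It had 7.14, 7.04, 7.20 and 7.31 at 4 h, against 7.89 and 7.89 at 1 h and 7.61 and 7.62 at 2 h, with 0 h at 8.23 to 8.34, so the 3 groups did not overlap. The fall was 0.58 between early and 4 h (SE 0.086, limma adjusted p = 0.0131), with a difference of -0.54 between early and 0 h (adjusted p = 0.0405). By their means Y26D4A.21, ZC204.12, anmt-3 and Y40C7B.4 followed the same course, with early differences from 0 h of -0.54, -0.37, -0.49 and -0.44 that missed the threshold (adjusted p from 0.111 to 0.326), and pept-1, endu-2, kqt-2, C31H5.6 and mfsd-8.3 were intermediate in the rising direction (0.29, 0.72, 0.72, 0.27 and 0.19).

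Within the early group no gene passed between 1 h and 2 h in limma (0 of 17118, 1075 with unadjusted p under 0.05). Among the 59, the 2 h mean lay beyond the 1 h mean in the direction of the later difference in 42, 16 of the 23 that rose and 26 of the 36 that fell. Over all genes 49.3% were higher at 2 h than at 1 h, whatever their later difference. The share of all genes in which both steps had the same direction was not computed. Against 1 h alone 51 genes passed at 4 h (0.298%), and against 2 h alone 12 (0.0701%), from the same 4 h arrays. Of the 59, 27 passed against 1 h, 7 against 2 h and 5 against both. The median difference of the genes that rose was 0.66 against 1 h and 0.58 against 2 h, and that of the genes that fell was -0.67 and -0.61. Against 2 h alone the differences were 0.88 for ent-4 (adjusted p = 0.0186), -1.08 for ttr-29 (0.0364), -1.50 for mtl-1 (0.0364) and -0.72 for T12A2.3 (0.0364), whereas endu-2 (1.02, adjusted p = 0.153) and kqt-2 (0.83, 0.173) missed the threshold there.

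Members of several of the 49 gene lists lay on one side although few or none passed. These are descriptions, and no test of a list was run. Over all genes 8301 of 17118 lay above 0 (48.5%), and 2246 had unadjusted p under 0.05 in limma. Transthyretin-like genes were mostly lower at 4 h (36 of 40 members below 0, median -0.16), with ttr-29 the 1 called. They lay above 0 h in the early group (median 0.11) and near it at 4 h (-0.04). The 35 histone genes (32 of 35 members below 0, median -0.10, 0 called in limma, 6 with unadjusted p under 0.05) and the 68 genes of the early zygotic list, expressed in embryos (52 of 68 members below 0, median -0.11), had the same shape, with early medians over 0 h of 0.07 and 0.11. The probe set of his-6, the histone gene of smallest p, is marked as cross-hybridising, so histone genes may not all be read separately. The only early zygotic member called was skr-15, a Skp1-related gene, which fell by 0.42 (adjusted p = 0.047, 1 of 12 fits, up to 0.133). All 9 dod genes, named as lying downstream of the insulin-pathway factor DAF-16, were lower (median -0.27), with 0 called in limma, 3 at unadjusted p under 0.05 and dod-19 at -0.37 (adjusted p = 0.125). The dod median relative to each gene's mean was -0.21, 0.05, -0.08 and -0.03 on the 4 h arrays. It was 0.16 and 0.009 at 1 h and 0.20 and 0.07 at 2 h. In replicate 2 the 4 h array thus lay between those of 1 h and 2 h. Of 145 cuticle collagens 26 lay above 0 (median -0.09), and col-158 was the 1 called.

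**Figure D5:**
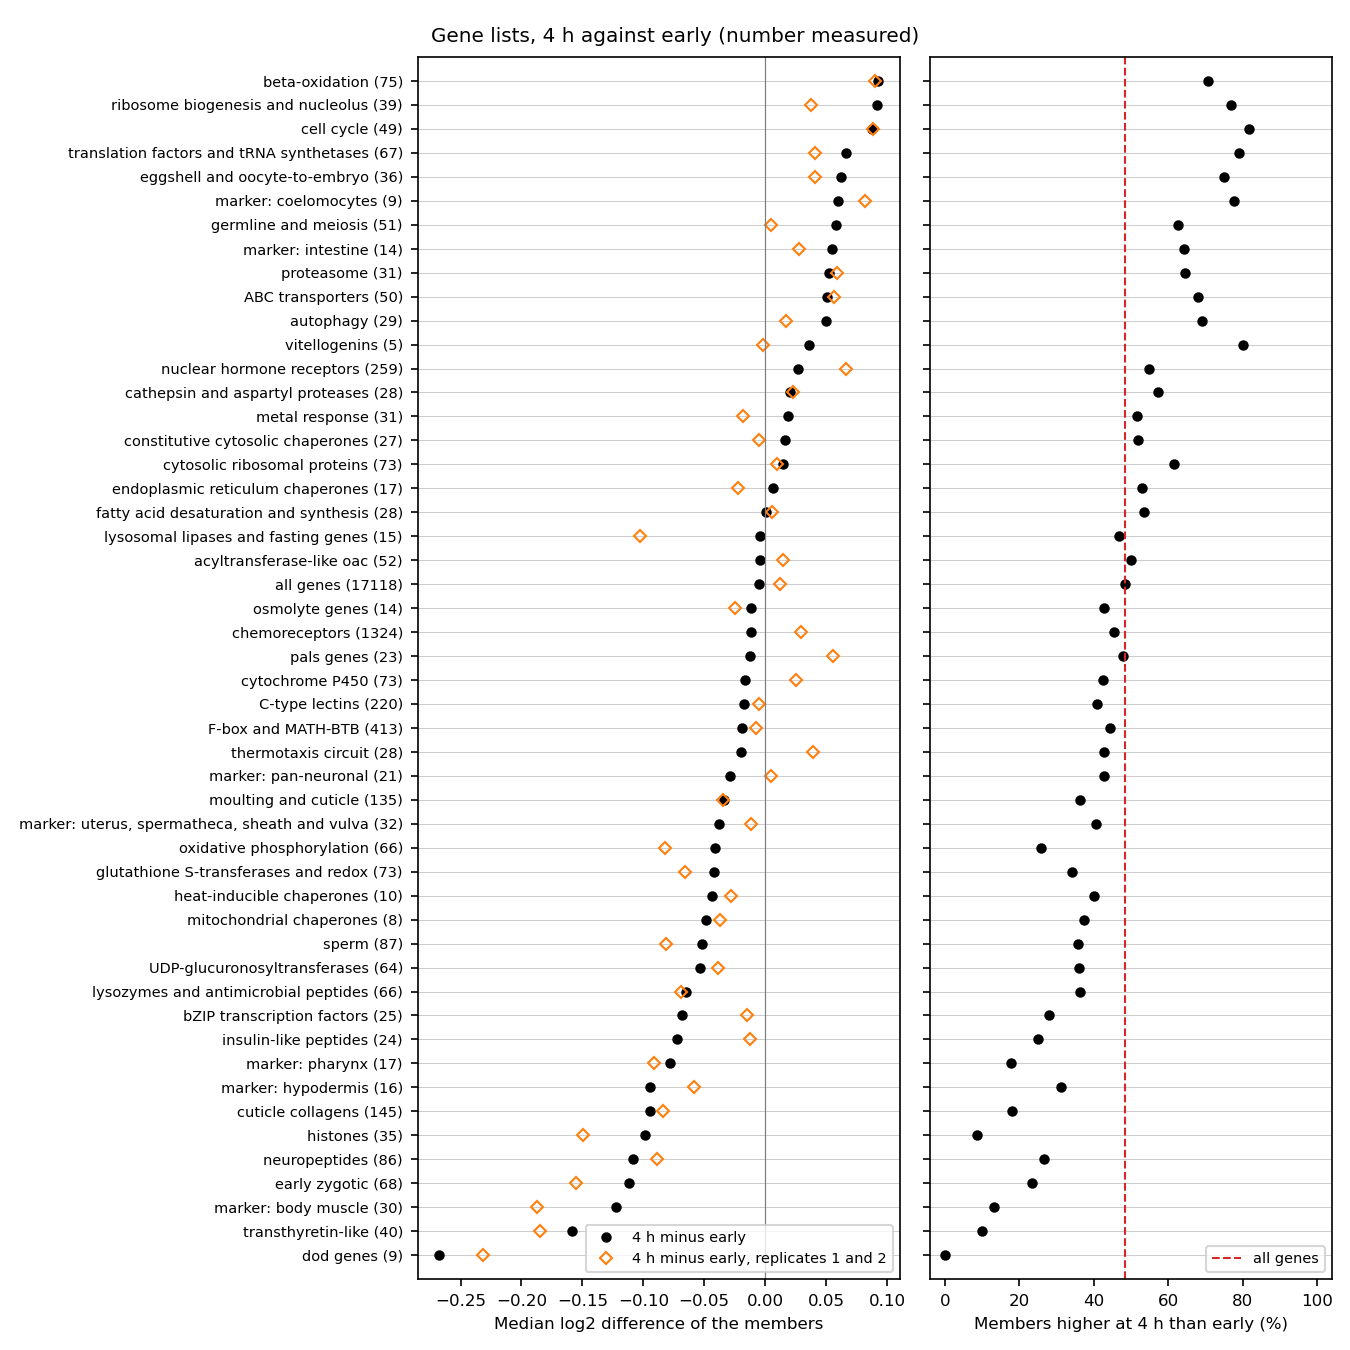
For each of the 49 gene lists and for all genes (rows, number measured in brackets), the median log2 difference between 4 h and the early group over all arrays (black) and within replicates 1 and 2 (open orange), and the share of members higher at 4 h (right, with the dashed line at the 48.5% of all genes). Medians run from -0.27 for dod genes to 0.09 for beta-oxidation.

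In the higher direction lay the cell cycle (40 of 49 above 0, median 0.09), translation factors and tRNA synthetases (53 of 67 above 0, median 0.07), ribosome biogenesis (30 of 39 above 0, median 0.09) and eggshell and oocyte-to-embryo genes (27 of 36 above 0, median 0.06). None of their members passed in limma (8, 6, 10 and 2 with unadjusted p under 0.05), with the cyclin B gene cyb-2.1 at 0.25 (adjusted p = 0.134), the histidyl-tRNA synthetase gene hars-1 at 0.31 (adjusted p = 0.117), utp-20 at 0.28 (adjusted p = 0.167) and puf-3 at 0.19 (adjusted p = 0.237). Within replicates 1 and 2 the medians of these 4 lists were 0.09, 0.04, 0.04 and 0.04. Against 0 h their medians were -0.05, -0.07, -0.04 and -0.04 in the early group and 0.01, 0.0019, 0.09 and 0.01 at 4 h. Except for ribosome biogenesis, these lists were thus slightly below 0 h early and near it at 4 h. Germline and meiosis genes (0 of 51 called, 9 unadjusted), proteasome subunits (0 of 31, 4 unadjusted), cytosolic ribosomal proteins (0 of 73, 1 unadjusted) and vitellogenins (0 of 5, 0 unadjusted) had medians of 0.06, 0.05, 0.01 and 0.04.

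Markers of some tissues lay on one side as well. Of 30 body muscle markers 26 lay below 0 (median -0.12, 0 called in limma, 8 with unadjusted p under 0.05), with the troponin I gene tni-3 at -0.50 (adjusted p = 0.0514). The median of this list relative to each gene's mean was -0.15, -0.08, -0.0023 and -0.0012 on the 4 h arrays, against -0.05 and 0.20 at 1 h and 0.04 and 0.18 at 2 h, so replicate 2 was the high early array at both times. Pharynx (14 of 17 members below 0, median -0.08, 5 unadjusted) and hypodermis markers (11 of 16 members below 0, median -0.09, 3 unadjusted) had 0 called members too, with phat-8 at -0.65 (adjusted p = 0.117) and hch-1 at -0.32 (adjusted p = 0.125). Of 14 intestine markers pept-1 was the 1 called, with 9 above 0 (median 0.05). Coelomocyte markers (median 0.06, 0 of 9 called, 0 unadjusted) and those of uterus, spermatheca, sheath and vulva (-0.04, 0 of 32, 2 unadjusted) held no change in limma either. The part of these markers in the changes of the 59 genes was not tested.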

How the data were processed

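Whole-animal RNA was amplified, biotin-labelled and hybridised to Affymetrix arrays, 1 per sample, per the labels' protocols. The authors deposited log2 values made with RMA (background correction, normalization and probe set summary), per the submitters' processing notes, which give no version. Base 2 was taken from the method and the range of the values. Of 22548 probe sets, 20766 had 1 gene symbol, 887 several and 895 none in the platform annotation, and 20701 of those with 1 symbol matched RefSeq's gene table of assembly WBcel235. A gene was read by its 1-symbol probe set of highest mean signal (17118 genes). No filter on dim probe sets was applied, and the number of arrays limits the precision.

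Linear models with means for 4 h, early and 0 h were fitted over the 12 arrays with limma 3.58.1 in R 4.3.3, and p-values were adjusted over all 22548 probe sets by Benjamini-Hochberg. The fit was also run on simulated arrays with independent noise. These lacked the correlation between same-numbered arrays given next, so they do not test the calls in its presence. Deviations from the group means correlated at 0.282, 0.169, 0.263 and 0.314 between same-numbered arrays of 0 h and 4 h, and at -0.29 to 0.147 between the others, so the numbers pair 0 h with 4 h. The labels do not say what the numbers share, and the pairing is read from the values. The main model has no such block. Genes named are the 12 largest changes without overlap in each direction, at most 3 called genes per list (or the one of smallest p), and up to 6 late onset and 6 returning genes in each direction, with the exceptions given. The comparison and the lists were chosen with earlier results of these data known. Alternatives were other early groups, a replicate block, replicates 1 and 2 only and each array left out. Others were filters on dim and on shared or cross-hybridising probe sets, quantile normalization and another variance estimate.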

Additional observations from a re-analysis of the deposited data

Results flagged for a closer look

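Among 210 groups of 4 arrays of the 70 named genes, 9 held an array whose gap to its nearest neighbour was a share of the group's range past Dixon's critical value. Chance gives about 1 in 20. At 4 h, replicate 1 was low for nlp-6 (7.24, the others 7.78 to 7.80, a gap of 0.967 of the range) and hsp-16.2 (2.94, the others 3.91 to 4.08, 0.854), and high for ptr-24 (6.49, the others 6.44 to 6.44, 0.879). In the early group, replicate 2 at 1 h was low for utp-20 (9.59, the others 9.88 to 9.88, 0.975) and hars-1 (8.97, the others 9.15 to 9.19, 0.834), and replicate 1 at 2 h was low for skr-15 (8.97, the others 9.07 to 9.09, 0.868). At 0 h, replicate 1 was high for ptr-24 (6.22, the others at or below 5.996, 0.887), replicate 2 high for ttr-29 (4.05, the others 3.73 to 3.77, 0.882) and replicate 4 low for slc-17.6 (7.22, the others 7.30 to 7.31, 0.851).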

How the results depend on the processing

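No direction reversed among 2153 values of 92 genes under the alternatives run, but the number of calls moved. Leaving out arrays could not reverse the direction of a gene whose 4 h and early arrays did not overlap. Nor could an early group of 1 h or 2 h alone. A mean for each time, the 8 arrays alone, the probe set filters and the other variance estimate left every difference unchanged. So did another p-value adjustment and leaving out a 0 h array. The absence of reversals was thus in large part fixed in advance. Against 59 genes called, 45 of late onset, 2 returning and 16 lists with a called member, leaving out 1 array gave 18 to 55, 17 to 40, 0 to 5 and 5 to 15. The 8 arrays of 4 h and the early group alone gave 15 genes and 3 lists, and the early group of 2 h alone gave 12 and 3. Without the 50% of probe sets of lowest signal the counts were 133 genes, 82 late and 5 returning. Without probe sets whose identifiers mark them as shared between transcripts (s) or cross-hybridising (x) they were 39, 29 and 1. Of the 59 called genes 38 were read by probe sets without either mark. The rest included ssp-10 (x) and fat-6, lys-4, nhr-31, atf-4, nhx-5 and ltah-1.2 (s), whose signals may not be specific to the gene. Variance estimation with a trend and robustly gave 132 genes, 73 late, 8 returning and 25 lists, and a mean for each time 5 returning. Replicates 1 and 2 only gave 28 genes, 2 late, 0 returning and 8 lists, where fewer arrays enter. The replicate block gave 164 genes (41 of the 59, so 18 calls were lost), 65 late, 21 returning and 25 lists, and within replicates 1 and 2 the block gave 30 genes, 2 late, 0 returning and 6 lists. Deviations of same-numbered arrays of 4 h and the early group correlated at 0.127, -0.0257, 0.0842 and 0.0306, not all over 0.1, so the numbers were not taken to pair 4 h with the early group, unlike 0 h with 4 h. Within the early group, same-numbered arrays of 1 h and 2 h correlated at 0.185, the same value for both numbers because each time has 2 arrays. The main model treats the early arrays as separate and does not take this into account. The cause of these movements was not tested. Signal near the lower quartile limits the sizes of hsp-16.2, ttr-29 and F23F12.3.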

Other observations

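Probe sets with several symbols or none were outside the comparison above, and 5 of 1782 passed (0.281%), all lower at 4 h. The 2 with symbols read small heat-shock genes of the hsp-16 family, whose near-identical copies cannot be told apart by them. The probe set shared by hsp-16.1 and hsp-16.11 averaged 5.02 ± 0.509 at 4 h and 6.95 ± 0.369 in the early group (SD, n = 4 each), a difference of -1.93 (limma adjusted p = 0.00634). The one shared by hsp-16.48 and hsp-16.49 averaged 3.55 ± 0.461 and 5.49 ± 0.499, a difference of -1.95 (limma adjusted p = 0.0137), its 4 h mean at the lower quartile of the arrays. Both differences were larger in size than any of the 59 genes, where the largest was -1.58 in mtl-1. The 3 unnamed probe sets differed by -0.71, -0.74 and -0.52.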
